A study of Homo sapiens with 11 samples.

Results

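The eukaryotic translation initiation factors (eIFs) were described here over 11 expression arrays of the MYCN-amplified human neuroblastoma line IMR32. Members were all probe sets whose 1 annotated gene symbol begins with EIF followed by a digit, pseudogene symbols left out. The rule found 131 of the 54675 probe sets on the array, under 53 symbols. Of these, 123 probe sets stood for 48 protein factors and are reported, 6 stood for 4 noncoding RNA symbols, and 2 stood for 1 Y-linked symbol that is not reported here. A further 10 probe sets listed an EIF symbol beside other symbols and were kept apart. Of the 48 genes, 47 were bright enough to be tested, among 11865 genes tested of 19775. The gene left out was EIF4A2, whose only probe set with 1 symbol averaged a signal of 3.7. Brighter probe sets that list EIF4A2 beside other symbols are among the 10 kept apart.

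The cells were transduced with lentivirus that carried a hairpin against MYCN (shMYCN#3) or a control hairpin (SHC002), and RNA was taken 24, 48 or 72 h later. There were 2 arrays labelled shMYCN, with the letters A and B, at each of the 3 hours, 1 control virus array at each hour, and 2 arrays of cells at 0 h that received no virus. All groups share the same amplified line, and 1 hairpin stands for the MYCN knockdown. The labels call the transduction duplicate and say no more of separate cultures. The p-values therefore reflect spread among arrays that may be technical. The single control array of an hour was assumed to vary like the groups of 2.

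The initiation factors bring a ribosome to the start codon of a messenger RNA. eIF2 carries the initiator transfer RNA, eIF2B recharges eIF2 with GTP, and the eIF2 kinases block that step under stress. eIF3, eIF1 and eIF1A hold the small ribosomal subunit ready, eIF4E, eIF4G and eIF4A recognise and unwind the capped end of the messenger RNA, and eIF5 and eIF5B end the search and join the large subunit. MYC family proteins are known to drive genes of ribosome production and protein synthesis, and EIF4E is a textbook MYC target.

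MYCN itself, the gene the hairpin is directed at, was read on its brightest probe set alone. That set ranged in signal from 4507 to 5624 over the 11 arrays and differed by -0.02 ± 0.08 log2 between shMYCN and control virus (limma adjusted p = 0.866). Errors after ± are standard errors of the fit, over 6 arrays labelled shMYCN and 3 of control virus. Its signal therefore does not check the labels, and each direction given for the hairpin rests on the label. Of the 9 neuroblastoma markers found, 8 passed the filter on dim genes and TH did not, while 2 of 4 leukocyte, 1 of 4 fibroblast and 0 of 3 epithelial markers passed it. The leukocyte markers that passed, FCER1G and CD79A, had median signals of 14.6 and 23, near the filter, and PTPRC had 2.6. Among the neuroblastoma markers, STMN2 (2.05 log2, limma adjusted p = 3.08e-08) and CHGA (0.32, limma adjusted p = 0.00396) were higher. DBH was lower (-0.47 log2, limma adjusted p = 0.000947), and the others that passed the filter were not called. The fibroblast marker was COL1A1 (0.67 log2, limma adjusted p = 0.000378), and its part in the results below was not tested. The correlation of log2 signals across all genes within the pairs of arrays was 0.987 to 0.995, and the 48 h pair labelled shMYCN was the least alike. Over the 47 eIF genes the median difference within that pair was 0.175 log2, against 0.0603 log2 within the pair without virus.

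More eIF genes were lower than higher in the arrays labelled shMYCN. In the mean difference over the 3 hours, 16 of 47 eIF genes were lower than in control virus, 3 were higher and 28 did not pass (limma, Benjamini-Hochberg over all genes, threshold 0.05). That is 34.0% of eIF genes lower and 6.38% higher, against 15.8% of all genes lower, 22.2% higher and 37.9% called in either direction. The median log2 difference was -0.12 over the eIF genes and 0.04 over all genes. Signals are scaled to the same trimmed mean on every array, so a lower signal is a smaller share of the signal of its array. A change in cell number or in total RNA per cell cannot be seen. The genes lower were EIF2S2, EIF4E3, EIF6, EIF2B3, EIF4H, EIF3B, EIF5A, EIF2B5, EIF3A, EIF3M, EIF3J, EIF2B4, EIF4E2, EIF3D, EIF2D and EIF2B1. The genes higher were EIF4EBP2, EIF1B and EIF3F. Most differences were small: 3 of the 16 genes lower, EIF2S2, EIF4E3 and EIF6, had a fold of 1.5 or more on the scale of log2(signal + 16). Quantile normalization gave 16 lower and 6 higher, with 16.2% of all genes lower and 22.1% higher. Median scaling gave 20 lower and 3 higher, with 19.5% of all genes then lower and 16.8% higher. The tested eIF genes were bright, at a median mean signal of 1061.7 against a filter near 14.8, and were not set against genes of like signal. With the dimmest 60 percent of genes left out, 16 of 44 eIF genes were lower and 3 higher, against 20.4% and 24.2% of all genes.

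**Figure D1:**
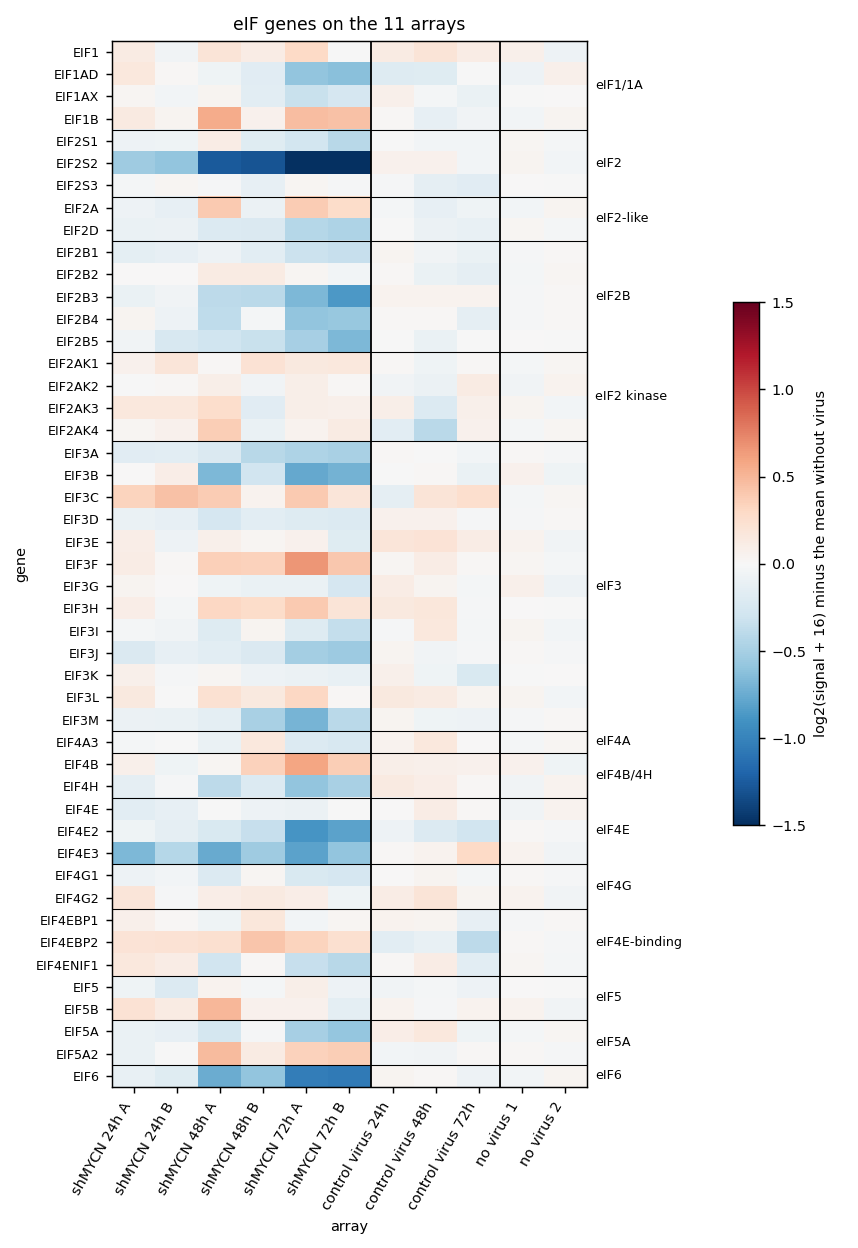
Heat map of 47 eIF genes (rows, grouped by complex) on the 11 arrays (columns: 6 labelled shMYCN, 3 control virus, 2 without virus). Colour gives log2(signal + 16) minus the mean of the 2 arrays without virus, and EIF2S2 and EIF6 are the darkest blue rows in the 72 h columns labelled shMYCN.

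Without a fitted model, 10 of 47 eIF genes separated the 6 arrays labelled shMYCN from the other 5, and 37 did not. All 6 arrays labelled shMYCN lay below all 5 other arrays for 8 of 47 eIF genes, 17.0%, against 6.52% of all genes tested. These were EIF2S2, EIF6, EIF2B3, EIF4E3, EIF3A, EIF3D, EIF3J and EIF3M. All 6 lay above the other 5 for EIF4EBP2 and EIF1B, which is 4.26% of eIF genes against 8.42% of all genes. Both 72 h arrays labelled shMYCN lay below all 9 other arrays for 20 eIF genes (42.6%, against 17.1% of all genes) and above them for 2, EIF3F and EIF4B (4.26%, against 18.7% of all genes).

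**Figure D2:**
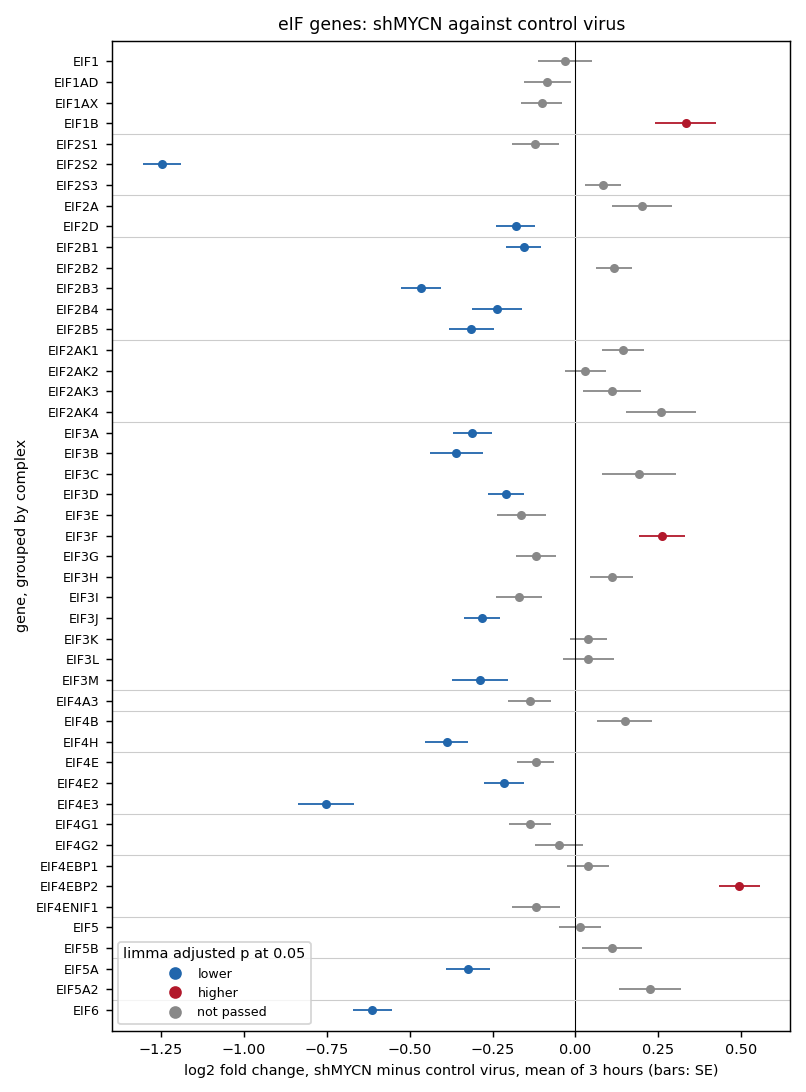
Log2 fold change of each of the 47 eIF genes, shMYCN minus control virus as the mean of 3 hours (points), with standard errors (bars), grouped by complex. Blue points were lower and red points higher at a limma adjusted p of 0.05, and EIF2S2 at -1.25 stands furthest from 0.

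Single arrays weighed on these counts. Without the control virus array of 72 h, 7 genes were lower and 1 was higher, with 6.54% of all genes lower and 9.79% higher. EIF1B, EIF2B1, EIF2B4, EIF2B5, EIF2D, EIF3B, EIF3F, EIF3J, EIF3M, EIF4E2 and EIF5A were then no longer called. Leaving out the 48 h array B labelled shMYCN left 1 array in that group. The median difference was then -0.07 log2 over the eIF genes and 0.03 over all genes. The calls that held under each of 22 alternatives were EIF2S2, EIF4E3, EIF6, EIF2B3, EIF4H and EIF3A, all lower, and EIF4EBP2, higher.

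More eIF genes were called at the later hours. At 24 h, 1 eIF gene (EIF2S2) was lower and 0 were higher, with 5 at an unadjusted p under 0.05, and 0.708% of all genes were called (0.59% lower, 0.118% higher). At 48 h, 6 were lower (EIF2S2, EIF4E3, EIF6, EIF3B, EIF2B3 and EIF4H) and 1 was higher (EIF4EBP2), while 17% of all genes were called (6.9% lower, 10.1% higher). At 72 h, 15 were lower and 5 higher, while 34% of all genes were called (15.7% lower, 18.3% higher). Median scaling gave 22 lower and 2 higher at 72 h, where the shares of all genes under it were not counted. In the mean of the 3 hours it moved those shares to 19.5% lower and 16.8% higher. Of the 15 genes lower at 72 h, EIF1AD (-0.60 log2) was not among those lower in the mean of the 3 hours. The 5 higher at 72 h were EIF4EBP2, EIF3F, EIF1B, EIF4B and EIF3H.

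**Figure D3:**
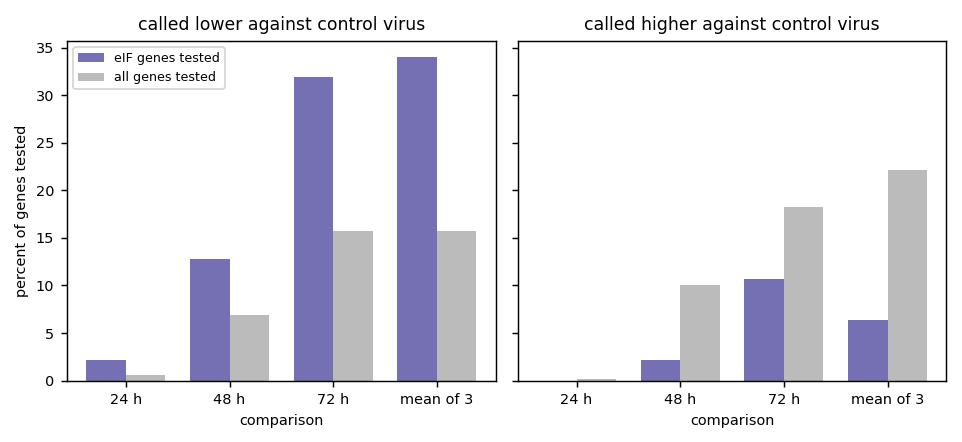
Percent of genes called lower (left) and higher (right) in shMYCN against control virus at 24, 48 and 72 h and in the mean of the 3 hours, for the 47 eIF genes (purple) and all 11865 genes tested (grey). The eIF bar is above the grey bar in each lower pair and below it in each higher pair.

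Within the arrays labelled shMYCN, 16 eIF genes were lower and 5 higher at 72 h than at 24 h, while 36.4% of all genes were called (18.3% lower, 18.1% higher). Quantile normalization gave 16 lower and 9 higher, and median scaling 24 lower and 2 higher. The shares of all genes for this step were not counted under either, so these counts cannot be set against them. When the same step of the control virus arrays was taken off, 6 eIF genes fell further (EIF2S2, EIF1AD, EIF6, EIF3B, EIF2B3 and EIF4E2) and 0 rose, with 12 at an unadjusted p under 0.05. That test called 10.3% of all genes (5.82% lower, 4.52% higher) and rests on 1 control array at each end.

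Promoter sequences are shown because the CACGTG motif, the E-box that MYC proteins bind, bears on which eIF genes hold a candidate site. RefSeq windows (GRCh38.p14) of 250 bases before and 50 bases after the start were found for 40 of the 48 genes, in 54 windows. The genes with none were EIF2AK1, EIF2S2, EIF3A, EIF3E, EIF3G, EIF3H, EIF3L and EIF4EBP1. The motif reads the same on both strands. It was found in 11 of the 40 eIF genes (27.5%), against 8.77% of all 27305 genes with a window. By window the shares were 20.4% of 54 and 7.26% of 35116. Among eIF genes with a window, it was found in 2 of 14 called lower in the mean of the 3 hours, 2 of 3 called higher and 7 of 22 that did not pass. The stretches below are those of the called genes and of EIF4E and EIF4G1, which like EIF5A2 hold a pair of copies each and did not pass, all 5′ to 3′ on the gene's strand with the motif in capitals. EIF2B3 (chr1:44986747-44986796, minus strand) and EIF4H (chr7:74174135-74174184, plus strand) were lower. EIF1B (chr3:40309631-40309680, plus strand) and EIF3F (chr11:7987247-7987296, plus strand) were higher. EIF4E (chr4:98929331-98929380 and chr4:98929178-98929227, minus strand) and EIF4G1 (chr3:184314440-184314566, plus strand) did not pass.
EIF2B3: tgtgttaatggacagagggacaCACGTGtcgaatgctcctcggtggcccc
EIF4H: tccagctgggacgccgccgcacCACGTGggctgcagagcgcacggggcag
EIF1B: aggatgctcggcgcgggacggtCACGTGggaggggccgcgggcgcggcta
EIF3F: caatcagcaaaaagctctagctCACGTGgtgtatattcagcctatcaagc
EIF4E, far copy: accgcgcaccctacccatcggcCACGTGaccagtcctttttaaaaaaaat
EIF4E, near copy: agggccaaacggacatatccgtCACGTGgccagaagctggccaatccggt
EIF4G1: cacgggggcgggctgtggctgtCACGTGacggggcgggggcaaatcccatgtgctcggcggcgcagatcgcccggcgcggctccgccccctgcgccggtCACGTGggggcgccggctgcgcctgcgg

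A second feature, searched after the values were seen, was a start like that of the 5′ terminal oligopyrimidine (TOP) messenger RNAs, whose translation follows mTOR signalling. It was taken as a C at the annotated start followed by at least 4 C or T on the gene's strand. Such a start was found in 9 of the 40 eIF genes (22.5%), against 5.14% of all genes with a window. By window the shares were 16.7% and 4.07%. The 9 were EIF2A, EIF2D, EIF2S3, EIF3D, EIF3F, EIF3K, EIF3M, EIF4A2 and EIF4B. In the mean of the 3 hours they included 3 genes called lower (EIF2D, EIF3D, EIF3M), 1 called higher (EIF3F) and 4 that did not pass, and EIF4A2 was not tested. Both matches are descriptions of letters in these windows and not of binding. Stretches of 30 bases around the start, with the run of C and T in capitals, are given for the called genes and for EIF4B: EIF3F (chr11:7987327-7987356, plus strand), EIF4B (chr12:53006446-53006475, plus strand), EIF2D (chr1:206612446-206612475, minus strand), EIF3D (chr22:36529147-36529176, minus strand) and EIF3M (chr11:32583821-32583850, plus strand).
EIF3F: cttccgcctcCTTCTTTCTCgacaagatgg
EIF4B: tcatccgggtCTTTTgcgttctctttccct
EIF2D: ccagccgggcCCTTTTCgcggccgggcccc
EIF3D: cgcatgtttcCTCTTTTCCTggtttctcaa
EIF3M: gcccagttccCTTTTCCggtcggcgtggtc

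Of the eIF2 genes, 1 of 3 was lower, and it held the largest difference of all eIF genes. EIF2S2, the beta subunit, had signals of 1586 and 1522 at 24 h, 954 and 928 at 48 h, and 675 and 609.6 at 72 h in arrays labelled shMYCN, against 2401, 2415 and 2231 in control virus at the same hours and 2363 and 2243 without virus. Each array labelled shMYCN lay below all others, and the signal was lower at each later hour. The mean difference was -1.25 ± 0.06 log2, a fold of 0.421 (limma adjusted p = 1.17e-07), and by hour it was -0.62, -1.34 and -1.77 log2. EIF2S1, the alpha subunit that the stress kinases phosphorylate, differed by -0.12 ± 0.07 log2 and did not pass (limma adjusted p = 0.209). Its 72 h signals labelled shMYCN, 706 and 640.1, lay below 832 in control virus. EIF2S3, the gamma subunit that binds GTP and the initiator transfer RNA, differed by 0.08 ± 0.06 log2 and did not pass (limma adjusted p = 0.262).

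Of the 5 eIF2B genes, the exchange factor that reloads eIF2, 4 were lower. EIF2B3, the gamma subunit, had 436 and 449.6 at 24 h, 353 and 351 at 48 h, and 287 and 250.2 at 72 h in arrays labelled shMYCN, against 485, 485 and 487 in control virus and 461 and 476 without virus. The 6 arrays labelled shMYCN did not overlap the other 5, and the 72 h pair was lowest (-0.47 ± 0.06 log2, limma adjusted p = 0.000148). EIF2B5, the catalytic epsilon subunit, had 317 and 277 at 24 h, 266 and 259 at 48 h, and 229 and 202 at 72 h against 328, 309 and 329 in control virus and 333 and 328 without virus. One 24 h array labelled shMYCN lay within the range of the control arrays and the other 5 lay below it (-0.31 ± 0.07 log2, limma adjusted p = 0.00395). With the mean of the gene's probe sets EIF2B5 was not called (-0.04 log2, limma adjusted p = 0.688). That mean takes in 1558050_at, which had a mean signal of 17.8, near the filter. EIF2B4, the delta subunit, differed by -0.24 ± 0.08 log2 (limma adjusted p = 0.0296), with 466 and 474 at 72 h labelled shMYCN against 647 in control virus. EIF2B1, the alpha subunit, differed by -0.16 ± 0.05 log2 (limma adjusted p = 0.0388), the smallest difference called, and lost its call in 11 of 22 alternatives. EIF2B4 lost its call in 8. EIF2B2, the beta subunit, differed by 0.12 ± 0.05 log2 and did not pass (limma adjusted p = 0.115).

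Of the 4 eIF2 kinase genes, 0 passed the limma test and 2 had an unadjusted p under 0.05. All 4 differences were positive, at 0.14 log2 for EIF2AK1 (activated without heme), 0.03 for EIF2AK2 (activated by double-stranded RNA), 0.11 for EIF2AK3 (activated by unfolded protein in the endoplasmic reticulum) and 0.26 for EIF2AK4 (activated by uncharged transfer RNA). Adjusted p-values from limma were 0.0936, 0.727, 0.341 and 0.0762 in the same order. EIF2AK4 had 85.2 and 87.7 at 24 h, 112 and 76.2 at 48 h, and 87.0 and 92.0 at 72 h labelled shMYCN against 73.0, 59.0 and 87.1 in control virus and 80.9 and 85.0 without virus. Those values overlapped between groups. Of the 2 factors that can bring initiator transfer RNA without eIF2, EIF2D was lower (-0.18 ± 0.06 log2, limma adjusted p = 0.0292) and EIF2A was not called (0.20 ± 0.09 log2, limma adjusted p = 0.104). EIF2D had 309.5 and 312 at 24 h, 287 and 284 at 48 h, and 244 and 237 at 72 h labelled shMYCN against 331, 312 and 307 in control virus and 341 and 326 without virus. Its 24 h arrays overlapped the other groups and its later arrays lay below them, and its call was lost in 9 of 22 alternatives.

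Of the 13 eIF3 genes, which together make the scaffold that binds the small ribosomal subunit, 5 were lower, 1 (EIF3F) was higher and the remaining 7 failed the test. EIF3A, the largest subunit, had 1675 and 1684 at 24 h, 1617 and 1415 at 48 h, and 1363 and 1349 at 72 h in arrays labelled shMYCN, against 1911, 1886 and 1834 in control virus and 1907 and 1869.8 without virus. The groups did not overlap (-0.31 ± 0.06 log2, limma adjusted p = 0.00183). EIF3B had 1262 and 1339 at 24 h, 778 and 1023 at 48 h, and 730.0 and 763 at 72 h labelled shMYCN. Signals of EIF3B were 1243, 1269 and 1172 in control virus and 1308 and 1199 without virus. Its 24 h arrays labelled shMYCN overlapped the other groups and its 48 and 72 h arrays lay below them (-0.36 ± 0.08 log2, limma adjusted p = 0.0048). EIF3B was no longer called without the control virus array of 48 h or that of 72 h, which also takes that hour out of the mean.

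EIF3J, the loosely attached subunit at the decoding site, had 823 and 880.2 at 24 h, 861 and 821 at 48 h, and 666 and 654 at 72 h labelled shMYCN against 984, 921 and 947 in control virus and 968 and 949.6 without virus. Its groups did not overlap (-0.28 ± 0.05 log2, limma adjusted p = 0.00185). EIF3M had 1754 and 1741 at 24 h, 1682 and 1329 at 48 h, and 1146 and 1403 at 72 h against 1917, 1784 and 1777 in control virus and 1850.0 and 1888 without virus, again without overlap (-0.29 ± 0.08 log2, limma adjusted p = 0.0188). The mean of its probe sets, EIF3M at -0.10 log2, was not called (limma adjusted p = 0.354). That mean takes in 239848_at, 215190_at and 240513_at, at mean signals of 40.4, 31.7 and 13.3. The second brightest set of EIF3M, 202232_s_at, differed by -0.19 log2 and did not pass (limma adjusted p = 0.183). EIF3D, a subunit that can bind the cap of some messenger RNAs, had 1521 and 1498 at 24 h, 1371 and 1459 at 48 h, and 1423 and 1415 at 72 h against 1708, 1708 and 1617 in control virus and 1618 and 1648 without virus. Its arrays labelled shMYCN also lay below all others (-0.21 ± 0.05 log2, limma adjusted p = 0.01). The call was lost without the control virus array of 48 h, in a mean of 24 and 72 h only (limma adjusted p = 0.0629).

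EIF3F was the eIF3 gene called higher. It had 2208 and 2083 at 24 h, 2638 and 2612 at 48 h, and 3254 and 2716 at 72 h in arrays labelled shMYCN, against 2099.6, 2224 and 2072 in control virus and 2097 and 2005 without virus. At 24 h the values overlapped, and at 48 and 72 h the arrays labelled shMYCN were above all others (0.26 ± 0.07 log2, limma adjusted p = 0.0108). With the mean of all probe sets of EIF3F in place of the brightest, the difference was -0.03 log2 and did not pass (limma adjusted p = 0.741). That mean takes in 230479_at, which was lower, and 200865_at, which at a mean signal of 1.6 was too dim to test. EIF3H was called at 72 h only among the hours (0.32 log2, limma adjusted p = 0.0477). Its signals there were 2529 and 2216 labelled shMYCN against 1898 in control virus. The other genes of the complex, EIF3C, EIF3E, EIF3G, EIF3I, EIF3K and EIF3L, differed by -0.17 (EIF3I) to 0.19 log2 (EIF3C) and did not pass. The value of EIF3C came from 236700_at, the dimmest of the probe sets by which the 47 eIF genes were tested, at a mean signal of 27.6. The 3 probe sets that list both EIF3C and EIF3CL had mean signals of 2667 to 3087, and their differences, -0.09, -0.13 and -0.06 log2, did not pass.

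Among the cap-binding eIF4E genes, 2 of 3 were lower and EIF4E itself did not pass. EIF4E had 689.8 and 707 at 24 h, 768 and 733 at 48 h, and 726 and 769 at 72 h in arrays labelled shMYCN, against 775, 835 and 782 in control virus and 741 and 804 without virus. All 6 arrays labelled shMYCN lay below the 3 control virus arrays and overlapped those without virus (-0.12 ± 0.06 log2, limma adjusted p = 0.116). EIF4E3, a relative of EIF4E, had 176 and 211 at 24 h, 165 and 195 at 48 h, and 159 and 187 at 72 h against 294, 301 and 359 in control virus and 302 and 278 without virus. All 6 arrays labelled shMYCN lay below all others from 24 h on (-0.75 ± 0.08 log2, a fold of 0.593, limma adjusted p = 4.5e-05). The control virus array of 72 h was the highest of the 11. Of the further probe sets of EIF4E3, 238461_at was also lower (-0.79 log2, limma adjusted p = 4.56e-05). The sets 225941_at and 225939_at did not pass (-0.17 and -0.09 log2, limma adjusted p = 0.093 and 0.564). EIF4E2, a relative that binds caps without recruiting eIF4G and represses translation, had 434 and 413 at 24 h, 384 and 352 at 48 h, and 239 and 252 at 72 h against 429, 389 and 367 in control virus and 459 and 447 without virus. Its 72 h arrays and 48 h array B labelled shMYCN lay below the other groups, and the other 3 overlapped them (-0.22 ± 0.06 log2, limma adjusted p = 0.0144). EIF4E2 was not called with the mean of its probe sets (-0.08 log2, limma adjusted p = 0.222).

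Of the 3 genes of proteins that bind eIF4E, 1 was higher. EIF4EBP2, a repressor that holds eIF4E away from eIF4G until mTOR phosphorylates it, had 556 and 562 at 24 h, 569.8 and 645 at 48 h, and 610.3 and 571 at 72 h in arrays labelled shMYCN, against 430.2, 442 and 363 in control virus and 488 and 474 without virus. The 6 arrays labelled shMYCN lay above the other 5, and the control virus arrays lay below those without virus (0.50 ± 0.06 log2, a fold of 1.41, limma adjusted p = 8.61e-05). EIF4EBP1, its relative, differed by 0.04 ± 0.06 log2 and did not pass (limma adjusted p = 0.672). EIF4ENIF1, which carries eIF4E into the nucleus, differed by -0.12 ± 0.07 log2 and did not pass (limma adjusted p = 0.225). Its signals labelled shMYCN were 268 and 253 at 72 h, below 386 and 374 at 24 h (-0.52 log2, limma adjusted p = 0.0025). Control virus had 307 at 72 h and 349.9 at 24 h, and with that step taken off the change in EIF4ENIF1 was -0.34 log2 and did not pass (limma adjusted p = 0.265).

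Of the 5 tested helicase, helper and scaffold genes, 1 was lower. EIF4H, a helper of the eIF4A helicase, had 1273 and 1386 at 24 h, 1059.8 and 1216 at 48 h, and 923 and 996 at 72 h labelled shMYCN against 1538, 1504 and 1417 in control virus and 1349 and 1451 without virus. One 24 h array labelled shMYCN lay among the arrays without virus and the other 5 below them (-0.39 ± 0.07 log2, limma adjusted p = 0.000789). EIF4B, the other helper, had 1664 and 1513 at 24 h, 1617 and 2019 at 48 h, and 2389 and 2039 at 72 h against 1678, 1672 and 1650.4 in control virus and 1649.6 and 1514 without virus. It was higher at 72 h (0.42 log2, limma adjusted p = 0.0437), where both arrays lay above all 9 others, and did not pass in the mean of the 3 hours (0.15 ± 0.08 log2, limma adjusted p = 0.181). EIF4A3, a helicase of the exon junction complex, differed by -0.14 ± 0.07 log2, EIF4G1, the main scaffold, by -0.14 ± 0.06 log2, and EIF4G2, a scaffold without the eIF4E site, by -0.05 ± 0.07 log2. None of these 3 passed in the mean of the 3 hours or at any hour (limma adjusted p = 0.12, 0.107 and 0.627 in the mean).

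**Figure D4:**
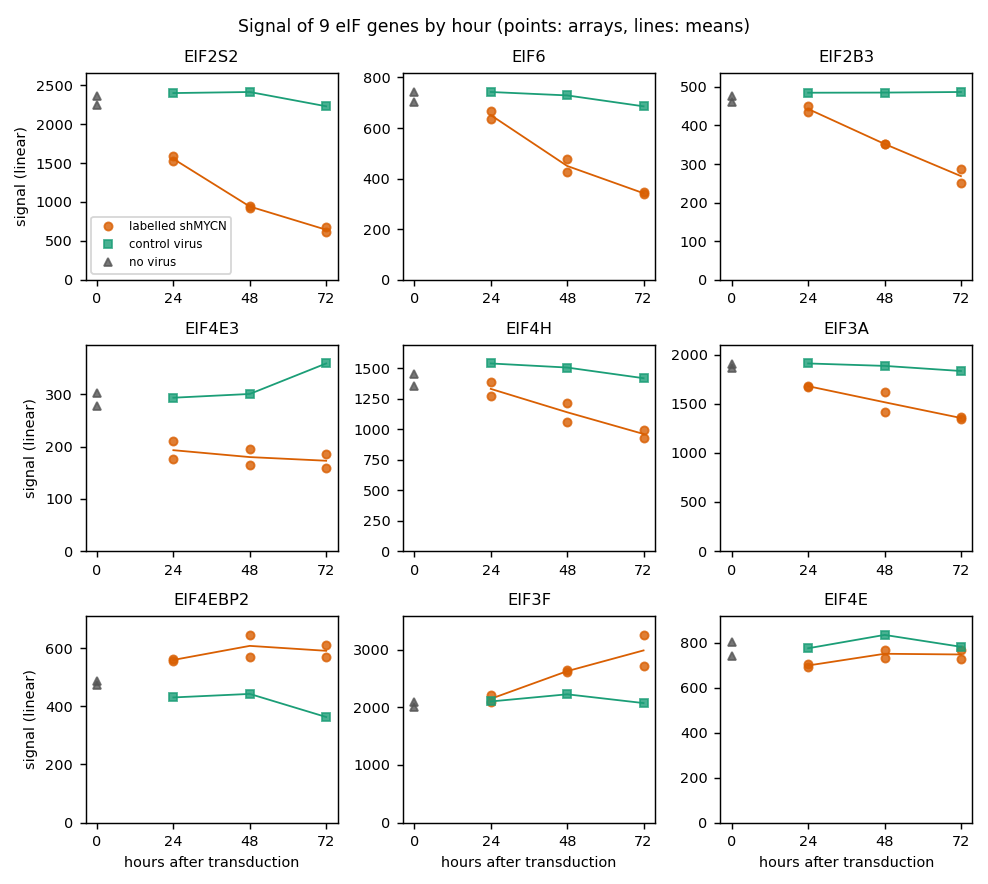
Signal (linear, axis from 0) of 9 eIF genes by hour for arrays labelled shMYCN (orange), control virus (green) and no virus (grey, at 0 h), with points for arrays and lines through the means. EIF2S2, EIF6, EIF2B3, EIF4H and EIF3A are lower at each later hour in the orange series, EIF4E3 is already low at 24 h, and EIF4E did not pass.

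EIF6, the factor that keeps the large ribosomal subunit from joining too early and is needed to make that subunit, had 667 and 635 at 24 h, 424 and 476 at 48 h, and 345 and 339 at 72 h in arrays labelled shMYCN, against 743, 729 and 686 in control virus and 705 and 741 without virus. The groups did not overlap, and the 72 h pair was lowest. The mean difference was -0.61 ± 0.06 log2, a fold of 0.654 (limma adjusted p = 1.59e-05), and by hour -0.19, -0.68 and -0.97 log2. EIF5A, the hypusine-bearing factor of elongation and termination, had 2136 and 2101 at 24 h, 1906 and 2258 at 48 h, and 1617 and 1519 at 72 h against 2439, 2559 and 2178 in control virus and 2243 and 2323 without virus. Array B of 48 h labelled shMYCN lay among the arrays without virus, and the other 5 lay below all others (-0.32 ± 0.07 log2, limma adjusted p = 0.00267). EIF5, which triggers GTP hydrolysis by eIF2, differed by 0.01 ± 0.06 log2 and EIF5B, which joins the subunits, by 0.11 ± 0.09 log2. Neither passed (limma adjusted p = 0.878 and 0.366).

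Of the 4 genes of the eIF1 and eIF1A group, 1 was higher. EIF1B, a close relative of EIF1, had 1577 and 1481 at 24 h, 2121 and 1497 at 48 h, and 1983 and 1946 at 72 h labelled shMYCN, against 1458, 1321 and 1380.1 in control virus and 1398 and 1473 without virus. All 6 arrays lay above the other 5, though by little at 24 h, where array B was nearest (0.33 ± 0.09 log2, limma adjusted p = 0.0147). EIF1B was not called with the mean of its probe sets (0.15 log2, limma adjusted p = 0.104). That mean takes in 237988_at, which at a mean signal of 6.6 was too dim to test. EIF1, which guards the choice of start codon, and EIF1AX, which steadies the scanning ribosome, differed by -0.03 and -0.10 log2 and did not pass (limma adjusted p = 0.792 and 0.222). EIF1AD, named for its eIF1A-like domain, had 263 and 236 at 24 h, 223 and 207 at 48 h, and 149.6 and 146 at 72 h labelled shMYCN against 203, 204 and 232 in control virus and 221 and 247 without virus. At 24 h its difference was positive without passing (0.28 log2, limma adjusted p = 0.41). At 72 h this brightest probe set was lower, below all 9 other arrays (-0.60 log2, limma adjusted p = 0.00299). The other tested set of EIF1AD, 223682_s_at, at a mean signal of 50.4, did not pass at 72 h (-0.08 log2, limma adjusted p = 0.806). It had 42.8 and 46.0 labelled shMYCN against 47.8 in control virus.

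Genes rest on their brightest probe set above, and other probe sets of a gene did not always move with it. Of 112 eIF probe sets tested one by one, 31 were lower, 11 higher and 70 did not pass, against 32.7% of all probe sets called (14.8% lower, 18% higher). In 29 genes with more than 1 tested probe set, 43 of 65 further probe sets had the sign of the brightest one. The further probe sets of EIF3A and EIF5A were all lower as well, and the further set of EIF2S2 was also lower (-0.49 log2, limma adjusted p = 0.00199).

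In 2 genes, EIF3F and EIF4E2, probe sets were called in both directions. Probe set 230479_at of EIF3F, at a mean signal of 108, was lower (-0.40 log2, limma adjusted p = 0.0107), against the bright set's 0.26. Probe set 226734_at of EIF4E2 was higher (0.47 log2, limma adjusted p = 0.000462), with 161 and 179 at 24 h, 184 and 204 at 48 h, and 214 and 210.3 at 72 h labelled shMYCN against 147, 135 and 119 in control virus and 153 and 146 without virus. These groups did not overlap, although the brightest set and 213570_at of the same gene were lower. For EIF5A2, the second hypusine-bearing gene, the brightest set did not pass (0.23 log2, limma adjusted p = 0.0859). Its sets 235296_at and 235289_at were lower (-0.69 and -0.34 log2, limma adjusted p = 8.9e-05 and 0.0208), and 235296_at had 79.0 and 72.4 at 24 h, 48.5 and 50.6 at 48 h, and 53.8 and 56.0 at 72 h labelled shMYCN against 98.9, 103 and 115 in control virus and 101 and 109.5 without virus. All 6 values labelled shMYCN lay below the other 5.

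In 7 other genes a further set was called where the brightest one did not pass. It was higher in EIF1 (228967_at, 0.54 log2, limma adjusted p = 0.00568), EIF3E (235429_at, 0.48 log2, limma adjusted p = 0.00182), EIF3H (230570_at, 0.41 log2, limma adjusted p = 0.0124), EIF2AK1 (217735_s_at, 0.23 log2, limma adjusted p = 0.0371) and EIF4B (211937_at, 0.22 log2, limma adjusted p = 0.0146). It was lower in EIF4G1 (208624_s_at, -0.20 log2, limma adjusted p = 0.0387) and EIF1AX (201017_at, -0.18 log2, limma adjusted p = 0.0356). The transcript parts these probe sets read were not compared here. Of the 10 probe sets annotated to several symbols, 1555996_s_at, whose list includes EIF4A2, was lower (-0.31 log2, limma adjusted p = 0.0126), and 214919_s_at, whose list includes EIF4EBP3, was lower (-0.38 log2, limma adjusted p = 0.00701). The other 8, whose lists include EIF4A1, EIF4A2, EIF3C or EIF5, did not pass. Among the 8, 200912_s_at also lists EIF4A2 and had a mean signal of 3865, against 181 for 1555996_s_at. It differed by 0.006 log2 (limma adjusted p = 0.96). The sets 201530_x_at, 211787_s_at and 214805_at list EIF4A1 and had mean signals of 4010, 4064 and 231. They differed by -0.19, -0.20 and 0.07 log2. Each of the 10 lists several symbols, and their values were not assigned to 1 gene here.

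**Figure D5:**
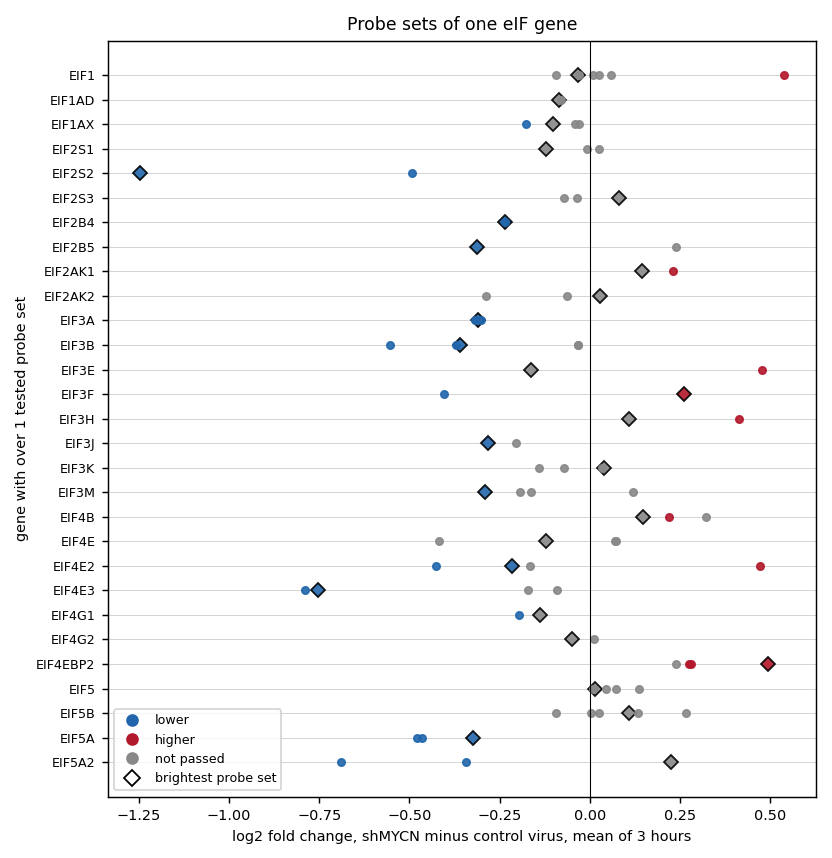
Log2 fold change, shMYCN minus control virus as the mean of 3 hours, of each tested probe set in the 29 eIF genes with more than 1. Diamonds mark the brightest probe set, blue was lower, red higher and grey did not pass, and EIF3F and EIF4E2 have both blue and red points.

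The partners of the initiation factors were mixed. Of 23 tested genes of 26 listed, 6 were lower and 4 higher in the mean of the 3 hours, where 15.8% of all genes were lower and 22.2% higher, and the counts of the lists that follow are to be read against the same shares. They included SLBP (-0.50 log2, limma adjusted p = 0.0003), which binds histone messenger RNA, DDX3X (-0.44, limma adjusted p = 0.000134), a helicase, ABCE1 (-0.33, limma adjusted p = 0.000812), which splits ribosomes, and MIF4GD (0.58, limma adjusted p = 0.000401), a partner of SLBP. Of 19 signalling genes, MKNK2, a kinase of eIF4E (0.55 log2, limma adjusted p = 0.000216), and IMPACT, an inhibitor of EIF2AK4 (0.37, limma adjusted p = 0.00172), were higher, and RPS6KB1, the S6 kinase, was lower (-0.25, limma adjusted p = 0.0073). Of the 2 enzymes that make hypusine on eIF5A, DOHH was lower (-0.26 log2, limma adjusted p = 0.0422) and DHPS did not pass. Of 13 tested elongation and release genes of 18 listed, 1 was lower, ETF1 (-0.25 log2, limma adjusted p = 0.00895), and 0 were higher. Of the 2 mitochondrial initiation factors, MTIF3 was higher (0.30 log2, limma adjusted p = 0.0148) and MTIF2 did not pass.

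Between control virus and no virus, no eIF gene passed the threshold. The arrays without virus are of 0 h, so virus and hours in culture cannot be told apart in that comparison. In the mean of the 3 control virus arrays against the 2 without virus, limma called 0 of 47 eIF genes, with 2 at an unadjusted p under 0.05, and 0.0337% of all genes. The differences ranged from -0.22 log2 (EIF4EBP2) to 0.16 log2 (EIF3E). EIF4EBP2 and EIF4E2 (-0.19 log2, limma adjusted p = 0.882) had the most negative values. For EIF4EBP2 the arrays labelled shMYCN lay nearer to those without virus than to those of control virus.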

How the data were processed

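Total RNA of IMR32 cells was measured on 11 one-colour Affymetrix arrays. The authors deposited a linear signal intensity per probe set, made with MAS5 and GCOS per the submitters' processing notes, with version and background correction not given in the sources used here. Every array had a trimmed mean of 100 over its middle 96 percent of values. No value column was left out as unmapped.

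Names came from the platform annotation: 41097 had 1 symbol, 1801 several and 11777 none, and 41043 symbols were updated through Entrez numbers. Promoter windows came from RefSeq (GRCh38.p14), and a build for the array design was not given in the sources used here. Values were log2(signal + 16), which understates folds of dim genes. A gene was its brightest probe set by mean log2 signal, and the dimmest 40 percent of genes (mean signal under about 14.8) were left out. limma 3.58.1 in R 4.3.3 fitted 7 group means (lmFit, contrasts.fit, eBayes with trend; 4 residual and 7.35 prior degrees of freedom), two-sided, with Benjamini-Hochberg adjustment over all genes and a threshold of 0.05. The fit was tested on simulated data. Probe sets were also fitted one by one at the same filter, adjusted over 22778. Precision is limited by the number of arrays.

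Every eIF gene could be named, and of each other list up to 4 genes by smallest p. The members and lists were chosen with earlier results of these data known. Letters A and B were not used as pairs in the main fit. The differences of A less B correlated between hours over all genes at -0.05, 0.04 and 0.10. Such low values cannot show that the letters are unpaired. Alternatives changed the offset, normalization, filter, probe set rule, variance model, block, threshold and arrays. Shares of all genes under the alternatives were counted only for the mean of the 3 hours. Python 3 (pandas, matplotlib) drew the figures.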

Additional observations from a re-analysis of the deposited data

Results flagged for a closer look

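For 6 of 47 eIF genes the difference between shMYCN and control virus was itself different at 72 h and at 24 h, by a limma test of that change over all genes. All 6 were lower and 0 higher, while the same test called 10.3% of all genes, 5.82% lower and 4.52% higher. The change, as the 72 h difference less the 24 h difference on the log2 scale, was -1.15 for EIF2S2 (adjusted p = 0.00104), -0.88 for EIF1AD (adjusted p = 0.0102), -0.79 for EIF6 (adjusted p = 0.00776), -0.70 for EIF3B (adjusted p = 0.0453), -0.70 for EIF2B3 (adjusted p = 0.0153) and -0.53 for EIF4E2 (adjusted p = 0.0409). Each rests on 1 control virus array at 72 h and 1 at 24 h. The values are those of the brightest probe sets, and the other tested set of EIF1AD, 223682_s_at, differed by -0.08 log2 at 72 h without passing. No group held the 4 arrays needed to look for a single outlying array.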

How the results depend on the processing

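Over the 3 hours, 19 eIF genes were called (16 lower, 3 higher), and offsets of 1 and 64, the 60 percent filter, no filter, no trend, the mean of all probe sets, both normalizations and the additive model gave 15 to 23. A threshold of 0.01 gave 11, with 10.4% of all genes lower and 13.6% higher. At 24 h the 1 call became 0 with no filter, with the mean of all probe sets, without the trend and at 0.01. At 48 h the 7 calls became 3 at 0.01, and the 6 genes whose difference changed between 24 and 72 h became 2. Leaving out 1 array gave 8 to 28 calls over the 3 hours, 0 to 3 at 24 h, 5 to 19 at 48 h, 14 to 26 at 72 h, 13 to 29 for shMYCN 72 h against 24 h, and 3 to 11 for the change between hours. Leaving out a control virus array also takes its hour out of the mean, so those runs do not cover the 3 hours. The 8 calls came without the control virus array of 72 h, with 6.54% of all genes lower and 9.79% higher. Without that of 24 h there were 23 calls, and without that of 48 h there were 15. The range therefore mixes the weight of an array with that of an hour. Without any array of 48 h, an alternative added after seeing the data, 17 were lower and 4 higher. Of all genes, 16.7% were then lower and 22.1% higher. With the letter as replicate block, 14 were lower and 3 higher, 17 in all, with 1 call at 24 h, 7 at 48 h, 19 at 72 h and 5 for the change between hours. Whether a letter marks a culture carried through the 3 hours is not given in the labels.

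With the mean of all probe sets in place of the brightest, the log2 fold change of EIF3F turned to -0.031 (limma adjusted p = 0.741). The log2 fold change of EIF5A2 turned to -0.27 (limma adjusted p = 0.00913), since other probe sets are then averaged in. The mean was taken before the filter, so sets too dim to test entered it and can make a difference smaller. Of 1031 results of single genes under alternatives, 953 kept their direction and side of the threshold, 45 lost the call, 31 gained it and 2 turned direction, where a change of sign was counted only if a gene passed in either setting. Of 19 called genes, 7 kept the call under all 22 alternatives, and EIF2B1 lost it in 11. Pairs of arrays and single controls limit the precision of each hour, and signal near background limits EIF3C, EIF2AK4 and EIF5A2.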

Other observations

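Of the 6 probe sets of noncoding EIF symbols, 2 passed the filter on dim probe sets, and neither was called. Probe set 235124_at of EIF3J-DT, a transcript divergent from EIF3J, had 62.5 and 52.0 at 24 h, 45.8 and 44.0 at 48 h, and 55.0 and 79.6 at 72 h labelled shMYCN, against 47.3, 63.5 and 67.4 in control virus (-0.07 ± 0.11 log2, limma adjusted p = 0.688). Probe set 236990_at of EIF2AK3-DT had 15.3 and 14.5 at 24 h, 16.4 and 21.8 at 48 h, and 24.7 and 39.1 at 72 h labelled shMYCN, against 18.3, 14.3 and 14.4 in control virus (0.23 ± 0.13 log2, limma adjusted p = 0.196). Both groups overlapped for each. The antisense symbols EIF1B-AS1 and EIF2AK3-AS1 stood at mean signals of 7.0 to 11.5.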
